A study of Mus musculus with 12 samples.

Results

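The cytochrome P450 genes are a large family of heme enzymes, each of which inserts an oxygen atom into a small molecule. They were taken as the protein-coding genes of the RefSeq gene table (GRCm38.p6) whose symbol is Cyp followed by a family number, a letter and a gene number, such as Cyp2e1. The rule gave 97 of 21887 protein-coding genes on chromosomes 1 to 19, X and Y. Of these, 79 belonged to families 1 to 4, which oxidise drugs, other foreign compounds and fatty acids, and 14 to sterol families (7, 8, 11, 17, 19, 21, 24, 27, 39 and 46), which work on cholesterol, bile acids, steroid hormones and vitamin D. The remaining 4 were Cyp20a1, whose substrate is not known, and the retinoic acid hydroxylases Cyp26a1, Cyp26b1 and Cyp26c1. Cyp51, the lanosterol demethylase of cholesterol synthesis, and Cyp2ab1 fell outside the symbol pattern.

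Many P450 enzymes of families 1 to 4 are among the most typical products of mature hepatocytes, where they sit in the endoplasmic reticulum and take electrons from the reductase Por. An R-loop forms where nascent RNA pairs with its DNA template and leaves the other strand single, and it is found at many transcribed genes, above all at CpG-rich starts and at transcript ends. The antibody S9.6 binds the hybrid and allows its DNA to be precipitated.

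The series mapped R-loops in HEPA1-6, a mouse hepatoma line, and in livers of C57/Bl6 mice, both labelled wild type, untreated and hepatocyte, and addresses how R-loops bear on editing with adeno-associated virus vectors. Each source had 3 groups of 2 libraries: S9.6 precipitate, precipitate with RNase H1, which destroys hybrids, and input DNA. The labels name no number of animals or cultures behind a library. The data used here were 1 peak list per source, from a merged precipitate set against input, with 28717 peaks for HEPA1-6 and 14908 for liver. A peak was counted at a gene when it overlapped the gene body or the 1 kb on either side of it. With 1 list per source there was no spread between replicates and no test between the sources, and the depth behind the lists is unknown. Intervals are 95% Wilson intervals over genes. They cover counting error only, and neighbouring P450 genes are not independent.

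Peaks were also counted at marker genes of cell types. Of 10 hepatocyte genes 1 held a peak in each list, and that gene was Alb. Of 8 genes of dividing cells, 7 and 6 did. None of 5 Kupffer cell and 4 endothelial genes held a peak in either list, and of 4 stellate cell genes only Dcn did, in both. A peak is not an expression level, so these counts cannot check which tissue a list came from. The liver share over all protein-coding genes was 29.7%, inside the interval of the hepatocyte genes (1.79 to 40.4% in each list). The HEPA1-6 share of 42.0% lay just above it. For the dividing-cell genes the intervals were 52.9 to 97.8% in HEPA1-6 and 40.9 to 92.9% in liver, wholly above both shares. The hepatocyte genes were also shorter, with a median of 10256.5 bp against 22217 bp for the dividing-cell genes. Length did not go with peaks throughout, since the Kupffer cell and endothelial genes without a peak were longer (medians 30487 and 53657.5 bp). Peak presence moved with promoter CpG content too, as described further on. The tissue list is called liver-labelled below after its label, and no conclusion on the tissue is drawn.

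Few P450 genes held a peak. In HEPA1-6 there were 9 of 97 (9.28%, 4.96 to 16.7%), whereas 42.0% of all protein-coding genes held one. In the liver-labelled list there were 7 of 97 (7.22%, 3.54 to 14.2%), against 29.7% of all protein-coding genes. With only the higher-scoring 50% of each list, the counts were 6 and 2 members, against 33.5% and 20.8% of all genes, a background added after the values were seen. Among genes with CpG-poor promoters, described further on and also added after the values were seen, the background was 17.1% and 12.0%. It is to be set not against all 97 members but against the 61 such genes of families 1 to 4 (6.56% and 8.20%). These were more CpG-poor than that background. The value of 12.0% lies inside the liver-labelled interval of the 61 genes (3.55 to 17.8%). The value of 17.1% lies above their HEPA1-6 interval (2.58 to 15.7%). Both lists had a peak at 3 members, Cyp2c39, Cyp2t4 and Cyp3a13, where 27.8% of all genes had a peak in both. A peak in HEPA1-6 only was found at 6 members (6.19%, against 14.2% of all genes). At 4 members (4.12%, 1.62 to 10.1%, against 1.89%) the peak was liver-labelled only, a share that could not be told from that of all genes. For Cyp20a1 and Cyp26a1 among them, the peak lay only in the flank. The remaining 84 members held none. The members were not short genes: their median length was 22495 bp, against 17169 bp over all protein-coding genes. Among the 7266 genes between 9959 and 34810 bp, the interquartile range of the members' lengths, 49.3% and 33.5% held one in HEPA1-6 and liver. Of the 49 members in this range, 4 and 3 did. In bases, peaks covered 0.522% of the members' windows (2.84 Mb) for HEPA1-6 and 0.215% for liver, where 4.77% and 1.62% of the windows of all protein-coding genes were covered.

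**Figure D1:**
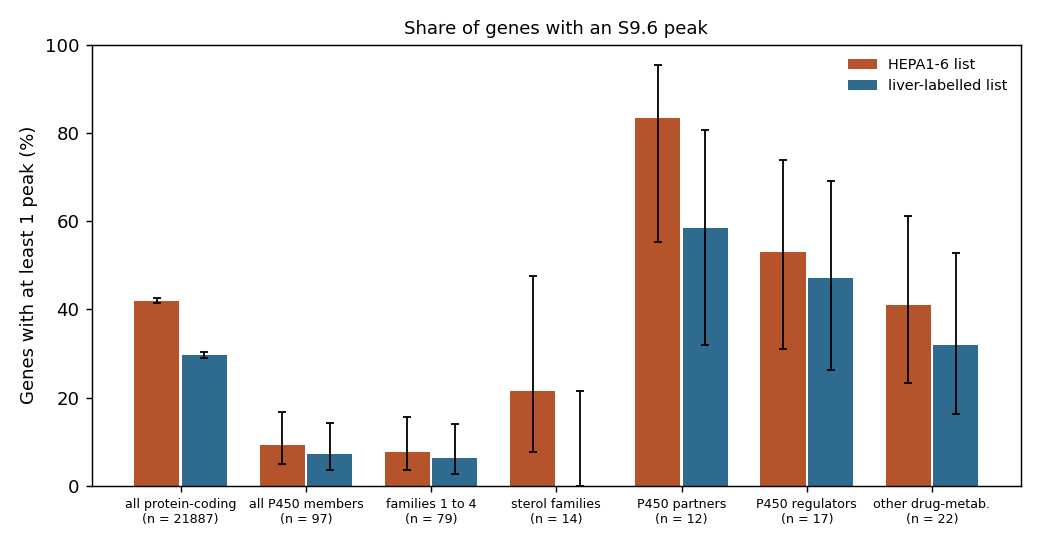
Bars give the percentage of genes with at least 1 peak in the HEPA1-6 and liver-labelled lists, and lines the 95% Wilson interval over genes, for all protein-coding genes, the P450 genes, their 2 main groups and 3 lists of related genes. The P450 bars (9.28% and 7.22%) lie below those of all genes (42.0% and 29.7%), while the partner genes of P450 enzymes stand at 83.3% and 58.3%.

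The drug-metabolising and the sterol families were then compared. In families 1 to 4, 6 of 79 genes held a HEPA1-6 peak (7.59%, 3.53 to 15.6%) and 5 one from the liver-labelled list (6.33%, 2.73 to 13.97%). In the sterol families, 3 of 14 held a HEPA1-6 peak (21.4%, 7.57 to 47.6%) and 0 of 14 a liver-labelled peak, which allows a share of up to 21.4% (3 counts of 14; the Wilson limit is 21.5%). Over all protein-coding genes the shares were 42.0% and 29.7%. The first lies inside the HEPA1-6 interval of the sterol families, so their HEPA1-6 share could not be told from that of all genes. The order of families 1 to 4 and the sterol families was opposite in the lists. The intervals overlapped in both, so a difference between the groups could not be told from counting error over so few genes. The HEPA1-6 share of the sterol families rested on Cyp7b1, Cyp27a1 and Cyp27b1, and only Cyp27b1 remained among the 14908 highest-scoring HEPA1-6 peaks.

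Sequence around the start was shown for the members whose promoter window overlapped a peak, and for Cyp2e1, the ethanol-inducible P450 of the liver, which held none. The windows come from RefSeq (GRCm38.p6), run from 250 bases before to 50 after the start, and are written 5′ to 3′ on the gene's strand. Capitals mark the bases inside a peak. Cyp2s1 lies at chr7:25816476-25816775 on the minus strand, Cyp27b1 at chr10:127047996-127048295, Cyp20a1 at chr1:60343050-60343349 and Cyp2e1 at chr7:140763569-140763868, all 3 on the plus strand.
Cyp2s1: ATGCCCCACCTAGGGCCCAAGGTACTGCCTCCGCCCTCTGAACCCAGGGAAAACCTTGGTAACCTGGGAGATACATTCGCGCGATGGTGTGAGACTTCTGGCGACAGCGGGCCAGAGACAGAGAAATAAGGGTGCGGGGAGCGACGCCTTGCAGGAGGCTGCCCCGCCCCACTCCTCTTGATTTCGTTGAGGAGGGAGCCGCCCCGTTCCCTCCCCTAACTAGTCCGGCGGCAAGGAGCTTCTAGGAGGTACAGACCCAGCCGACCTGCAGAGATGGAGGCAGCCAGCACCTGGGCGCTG
Cyp27b1: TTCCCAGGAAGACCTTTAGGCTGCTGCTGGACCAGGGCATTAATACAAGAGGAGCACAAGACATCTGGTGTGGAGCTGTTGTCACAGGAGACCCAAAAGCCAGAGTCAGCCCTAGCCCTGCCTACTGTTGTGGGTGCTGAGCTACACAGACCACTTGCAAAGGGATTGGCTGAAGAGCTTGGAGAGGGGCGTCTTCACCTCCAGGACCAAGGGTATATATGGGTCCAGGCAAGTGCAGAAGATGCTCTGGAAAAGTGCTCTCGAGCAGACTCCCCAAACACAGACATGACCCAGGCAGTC
Cyp20a1: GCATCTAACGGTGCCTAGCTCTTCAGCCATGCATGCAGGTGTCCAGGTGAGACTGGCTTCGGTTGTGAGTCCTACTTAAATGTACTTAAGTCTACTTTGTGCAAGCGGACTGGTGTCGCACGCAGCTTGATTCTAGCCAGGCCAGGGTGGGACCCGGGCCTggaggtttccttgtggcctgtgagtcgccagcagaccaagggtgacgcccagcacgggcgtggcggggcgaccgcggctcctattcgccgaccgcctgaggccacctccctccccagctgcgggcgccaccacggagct
Cyp2e1: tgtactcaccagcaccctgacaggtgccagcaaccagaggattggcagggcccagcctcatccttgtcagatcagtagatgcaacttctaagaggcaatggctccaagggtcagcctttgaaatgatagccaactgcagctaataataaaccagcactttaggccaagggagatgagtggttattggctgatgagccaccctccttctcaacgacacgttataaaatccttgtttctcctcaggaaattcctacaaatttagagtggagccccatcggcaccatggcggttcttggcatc

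All 300 bases of the Cyp2s1 and Cyp27b1 windows lay inside a HEPA1-6 peak, and 161 bases of the Cyp20a1 window, all before the start, inside a liver-labelled peak. The windows of Cyp2s1 and Cyp20a1 were both 63.0% G and C, with 17 and 20 CpG dinucleotides. That of Cyp27b1 was 54.3% G and C with 2 CpG, and its peak also overlapped the neighbour Mettl1, as described below. Cyp2e1 had 49.7% G and C and 4 CpG.

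Family 1 held no peak. Cyp1a1 and Cyp1a2, which oxidise aromatic hydrocarbons and caffeine-like compounds, lie back to back on chromosome 9. The nearest HEPA1-6 peak was 44.1 kb from the Cyp1a1 body and 33.1 kb from that of Cyp1a2, over Csk in both cases. In the liver-labelled list the distances were 24.3 kb (over Edc3) and 33.2 kb (over Csk). Neighbours of the pair thus carried peaks while both P450 genes held none.

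Family 2, with 47 genes the broadest, had 4 members with a HEPA1-6 peak and 2 with a liver-labelled peak. Cyp2s1, a P450 known mainly from epithelia outside the liver, held 3 HEPA1-6 peaks and none in the liver-labelled list. They spanned positions 25806132 to 25808163, 25814935 to 25815167 and 25816323 to 25817237 on chromosome 7, with scores of 28, 24 and 23. The authors' score has no stated scale. The list medians were 21 for HEPA1-6 and 22 for the liver-labelled list, so these peaks stood somewhat above the middle of their list. The third covered the gene's start, and all 3 carried the gene's own strand. The nearest liver-labelled peak lay 44.9 kb away, over Hnrnpul1 and Axl.

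At Cyp2d22, the mouse gene often set beside human CYP2D6, HEPA1-6 had 2 peaks, from 82371853 to 82373242 (score 15) and from 82374425 to 82374691 (score 26) on chromosome 15. Together with them no other of the 8 Cyp2d genes, among them Cyp2d9, held a peak in either list. Chromosome 15 carried many liver-labelled peaks: 54.4% of its protein-coding genes held one, and 56.3% a HEPA1-6 peak. Of the 10 P450 genes of this chromosome, which also include Cyp11b1 and Cyp11b2, 1 had a HEPA1-6 peak and none (0) one from liver.

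Cyp2t4 on chromosome 7 shared 1 peak between the lists, and this peak also ran into Egln2, an oxygen-sensing prolyl hydroxylase on the opposite strand. Both peaks began at 27157920. The HEPA1-6 peak ended at 27159633 (score 28) and was given the plus strand, that of Cyp2t4. The liver-labelled peak ended at 27159016 (score 19) and was given the minus strand, that of Egln2. The peak lies at the 3′ boundary of Cyp2t4, and the files do not say which of the genes its RNA comes from.

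Cyp2c39 is annotated over 222223 bp, longer than any other member. It held 1 peak in each list, but at different places. The HEPA1-6 peak (39519766 to 39520533, score 30) and the liver-labelled peak (39353344 to 39355344, score 14) were both on the plus strand. The latter also covered the pseudogene Cyp2c72-ps. Cyp2c39 was thus a member with a peak in both lists without a shared peak. The other 14 Cyp2c genes, including the abundant liver gene Cyp2c29, held none.

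Cyp2e1 held no peak in either list. Its nearest peaks were 30.3 kb away in HEPA1-6 (score 16) and 78.6 kb away in the liver-labelled list (score 20, over Bet1l). None of the 4 Cyp2a, 5 Cyp2b and 7 Cyp2j genes held a peak either. For Cyp2j genes, which oxidise arachidonic acid, the nearest HEPA1-6 peak was 652.4 kb (Cyp2j5) to 1047 kb (Cyp2j12) away.

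Family 3 was the only one of families 1 to 4 with more members in the liver-labelled list (3 of 9) than in HEPA1-6 (1 of 9). These enzymes handle a wide range of drugs and steroids. Cyp3a13, which lies apart from the Cyp3a cluster on chromosome 5, held 2 HEPA1-6 peaks, from 137892798 to 137895567 (score 26) and from 137896780 to 137897795 (score 25). The liver-labelled list had 1 peak there, from 137892798 to 137894324 (score 29). It began at the same base as the first HEPA1-6 peak, lay wholly inside it and covered the gene's 3′ boundary. All 3 peaks carried the gene's minus strand, and none touched another gene. Cyp3a13 was the only member at which peaks of both lists overlapped over no other gene.

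Cyp3a41a and Cyp3a44 each had 1 liver-labelled peak and none from HEPA1-6, inside the gene body: 145699332 to 145699741 with a score of 16, and 145784062 to 145784830 with a score of 24. The major liver gene Cyp3a11 held none, its nearest liver-labelled peak being 11.2 kb and its nearest HEPA1-6 peak 140.8 kb away. Cyp3a41a, Cyp3a41b and Cyp3a44 are close copies. The sources used here do not say how reads that match several copies were placed, so the assignment of these peaks to a copy is uncertain. The same holds for the Cyp2c and Cyp2d genes.

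Family 4, whose enzymes hydroxylate fatty acids, had 1 peak over 20 genes. It lay in HEPA1-6 at the 3′ boundary of Cyp4f16 (32551682 to 32552828 on chromosome 17, score 15); 117 of its 1147 bp lay in the gene. None of the 8 Cyp4a genes held a peak. For Cyp4a14 the nearest was 249.7 kb away in HEPA1-6 and 143.3 kb in the liver-labelled list.

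Among the 6 sterol genes that lead to bile acids or degrade cholesterol (Cyp7a1, Cyp7b1, Cyp8b1, Cyp27a1, Cyp39a1 and Cyp46a1), 2 had a peak from HEPA1-6 and 0 one from liver. Cyp7b1, the oxysterol hydroxylase of the acidic pathway, held 1 of 823 bp (18240143 to 18240965 on chromosome 3, score 19), 2925 bp from the boundary with the higher position. Cyp27a1, the mitochondrial sterol hydroxylase, held 1 of 320 bp (74716561 to 74716880 on chromosome 1, score 14), 3413 bp after its start. Both scores lay below the list median of 21. Cyp7a1, the rate-limiting enzyme of the classic pathway, held none, and its nearest peaks were 89.7 kb and 91.5 kb away, over Sdcbp in both lists. Cyp8b1, which sets the share of cholic acid, held none either, at 20.8 kb and 55.7 kb.

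Of 2 vitamin D genes, Cyp27b1, which makes the active hormone, held a HEPA1-6 peak and Cyp24a1, which degrades it, held none. The Cyp27b1 peak ran from 127043941 to 127048757 on chromosome 10 with a score of 46, the highest at any P450 gene in either list. Of its 4817 bp only 512 lay in Cyp27b1, and it also overlapped the neighbour Mettl1, an RNA methyltransferase gene on the same strand. A liver-labelled peak over Mettl1 (score 42) overlapped the HEPA1-6 peak by 1556 bp and ended 1.66 kb before the Cyp27b1 body, outside the window. The start of Cyp27b1 thus lay in HEPA1-6 only in a peak, near the far end of one that also overlapped Mettl1.

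None of the 6 steroid hormone genes (Cyp11a1, Cyp11b1, Cyp11b2, Cyp17a1, Cyp19a1 and Cyp21a1) held a peak in either list. The closest approach was at Cyp17a1, where a peak over Wbp1l lay 7.74 kb away in both lists. Among the remaining families, 2 genes held a liver-labelled peak, neither in the gene body. At Cyp20a1 a 241 bp peak (60342970 to 60343210, score 20) ended 90 bp before the start. At Cyp26a1 a peak (37696509 to 37696783 on chromosome 19, score 12) lay 955 bp before it, inside the lncRNA Gm32342 on the opposite strand.

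Peaks at P450 genes had ordinary scores. The 13 HEPA1-6 peaks ranged from 14 to 46 with a median of 25, against 21 for the list, and 9 of 13 lay above the list median. The 7 liver-labelled peaks ranged from 12 to 29 with a median of 19, against 22, and 2 of 7 lay above it. None reached the upper 10% of its list, the highest standing at percentile 88.8 in HEPA1-6 and 70.8 for liver. Their median widths were 1016 and 769 bp, against 1091 and 881 bp for the lists. Every peak at a P450 gene had a strand. Where the promoter table gave the gene's strand, 10 of 10 HEPA1-6 and 6 of 7 liver-labelled peaks had the strand of the gene, the exception being Cyp2t4. Over all protein-coding genes of known strand, 87.2% of 22985 and 83.5% of 10316 pairs of a gene and a peak had the same strand, so this was also what most genes showed. In only 44 and 38 of these pairs did the peak have no strand. How a strand was given to a peak is not stated. A strand taken from the gene would fix the agreement in advance, so no conclusion is drawn from it.

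**Figure D2:**
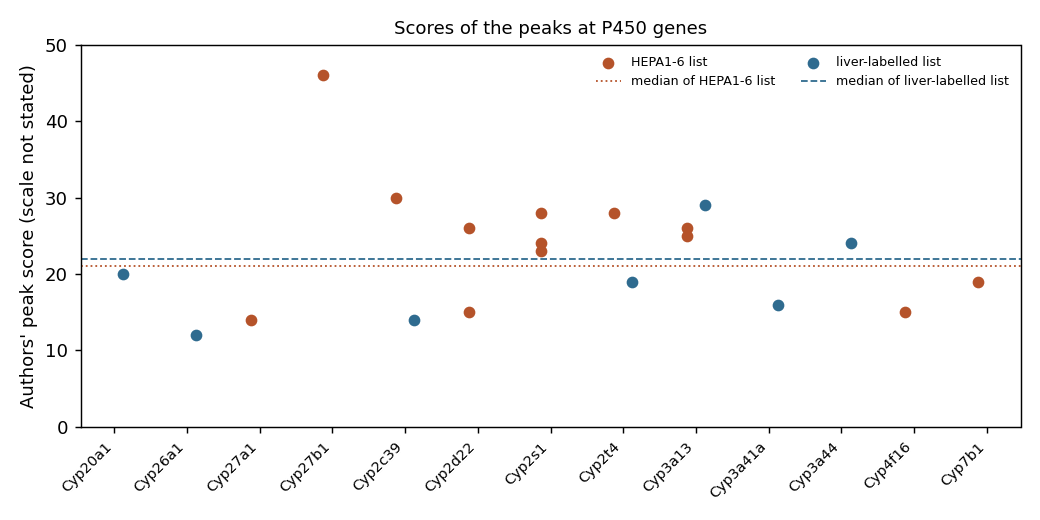
Points give the authors' score (whole number, scale not stated) of each peak at the 13 P450 genes with a peak, by list, and lines the median score of each whole list (21 for HEPA1-6, 22 for the liver-labelled list). Cyp27b1 stands highest at 46, and the other points lie between 12 and 30.

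By position, 2 of the 10 HEPA1-6 peaks at genes of known strand covered the start (Cyp2s1 and Cyp27b1) and 3 the 3′ boundary (Cyp2t4, Cyp3a13 and Cyp4f16). Of the 7 liver-labelled peaks 0 covered a start, 2 lay within 1 kb before one and 2 covered the 3′ boundary (Cyp2t4 and Cyp3a13). The other peaks lay within the gene. Positions over the peaks at all protein-coding genes were not computed, so these counts have no background.

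**Figure D3:**
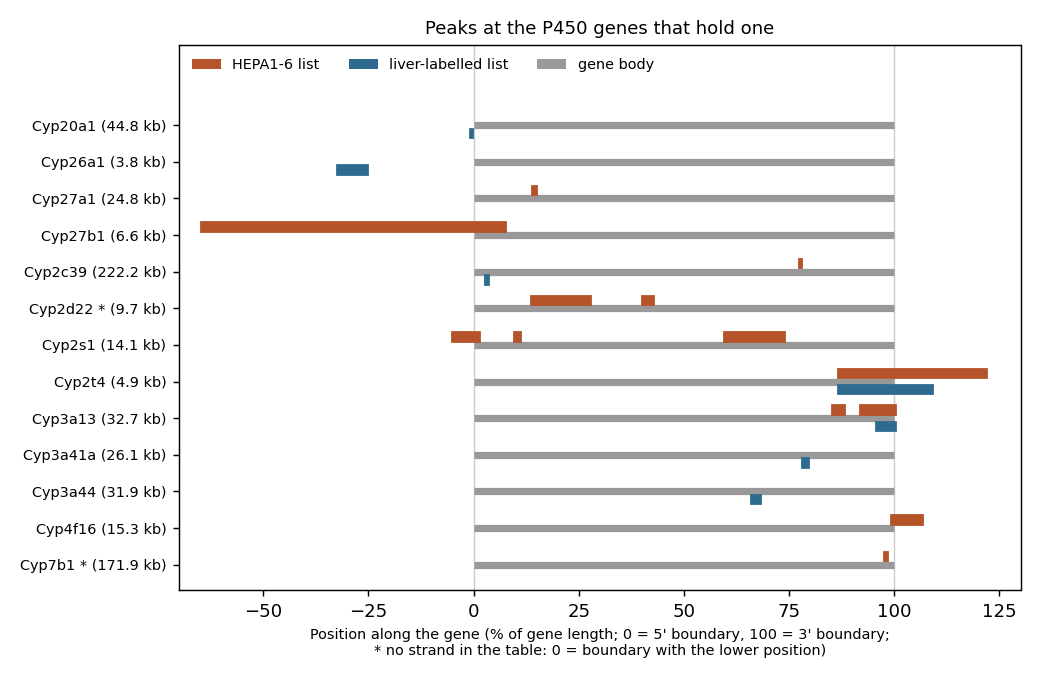
Grey lines are the bodies of the 13 P450 genes with a peak, drawn to a common length from the 5′ boundary (0%) to the 3′ boundary (100%), and blocks are the peaks of each list on the same scale, with very narrow ones widened to stay visible. For Cyp2d22 and Cyp7b1, marked *, 0% is the boundary with the lower position. Blocks of both lists meet only at Cyp2t4 and Cyp3a13, both at the 3′ boundary.

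Most P450 genes lie in clusters that arose by duplication. Joining members at most 500 kb apart gave 10 clusters with 75 genes, of which 5 held a HEPA1-6 and 5 a liver-labelled peak. Of the 22 genes outside clusters, 4 and 2 did. The Cyp4a cluster (10 genes with Cyp4x1 and Cyp4b1, 541.4 kb) and the Cyp2j cluster (7 genes, 621.5 kb) held 0 HEPA1-6 peaks over genes or between them, where chromosome 4 had 9.45 per Mb, and 1 liver-labelled peak each. In the Cyp4f cluster, 6 of the 7 HEPA1-6 peaks and all 3 liver-labelled peaks lay on the zinc finger genes Zfp871, Zfp799 and Zfp870 that stand between the P450 genes.

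The Cyp3a and Cyp2c clusters held more liver-labelled than HEPA1-6 peaks, although that list is the shorter. The span of the Cyp3a cluster (8 genes, 769.8 kb) held 14 liver-labelled peaks, or 18.2 per Mb against 6.70 per Mb of chromosome 5, and 3 HEPA1-6 peaks, or 3.90 per Mb against 11.8. Only 2 of the 14 lay on P450 genes. Of the others, 10 lay outside annotated genes and 2 on the pseudogenes Cyp3a58-ps and Cyp3a63-ps. No strand was given for 10 of the 14, their scores ranged from 12 to 26, and 1 overlapped a HEPA1-6 peak. In the Cyp2c cluster (14 genes, 1180 kb) 5 liver-labelled peaks stood against 1 HEPA1-6 peak. Of these 5, 4 lay along the transcribed pseudogene Cyp2c53-ps, with scores of 40, 14, 20 and 17 and always on the plus strand, and none overlapped a HEPA1-6 peak. Of all 35 genes with a P450 symbol that are not protein-coding, 1 held a HEPA1-6 and 6 a liver-labelled peak. The latter include Cyp2c72-ps, at the peak also counted for Cyp2c39. The shares over all genes that are not protein-coding were not computed, so these counts have no background. Depth, the placement of reads among copies and the tissue could each differ here between the lists, and their part was not tested.

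**Figure D4:**
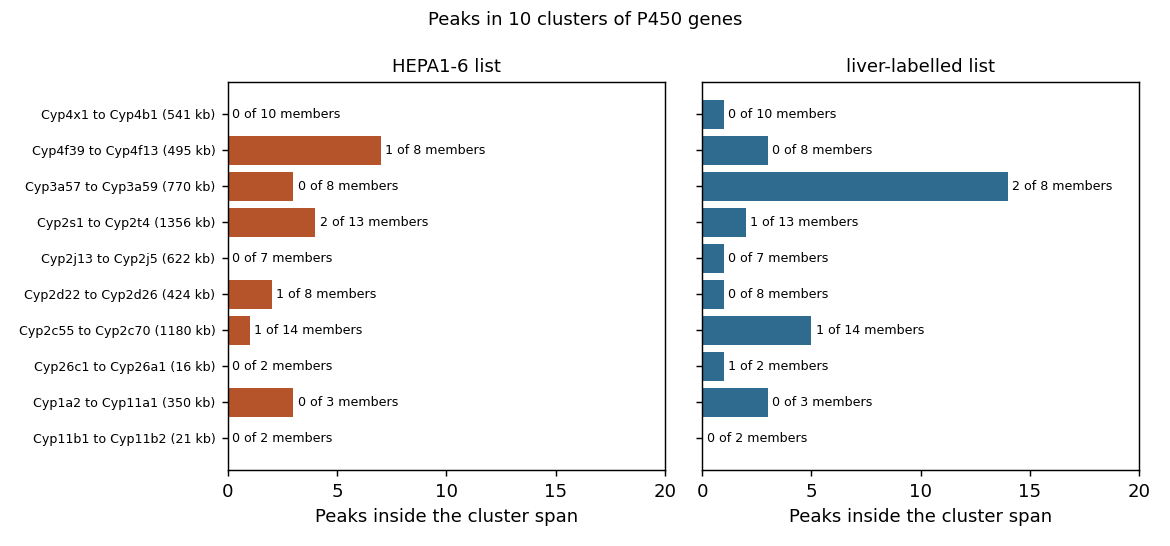
Bars give the number of peaks within the span of each of 10 P450 gene clusters, named by the first and last member with the span in kb, in each list, and the text beside a bar gives how many of the cluster's members held a peak. The Cyp3a57 to Cyp3a59 cluster has 14 liver-labelled peaks but only 2 members with one.

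Promoter composition was described for families 1 to 4, where 65 of 79 genes had a promoter in the RefSeq table. Over all 97 members (75 matched, 77.3%) and the sterol families (6 of 14) the check was void, since under 80% had one. The protein-coding genes as a whole fell just under the same limit (17492 of 21887, 79.9%), so the comparison with all genes is void too, and the values below describe only the promoters that the table holds. The promoters of families 1 to 4 had a median of 49.0% G and C, against 56.3% over the 17492 protein-coding promoters of the table. CpG dinucleotides stood at a median of 0.137 of the number that their base composition gives, against 0.577. A ratio of 0.5 or more was found at 4 of 65 (Cyp1b1, Cyp2r1, Cyp2s1 and Cyp4v3), or 6.15%, against 55.1% of all promoters. Median GC skew, (G-C)/(G+C) on the gene's strand, was 0.0294 and 0.00709. The letters TATAAA, on either strand, were found in 43.1% of these promoters and 13.3% of all, GGGG in 81.5% and 87.2%, and GCGTG, the core letters bound by the aryl hydrocarbon receptor, in 13 of 65 and 38.5%. A match is a description and not a binding site. A promoter window overlapped a HEPA1-6 peak in 1 of 65 (Cyp2s1), against 19.5% of all promoters, and a liver-labelled peak in 0 of 65, against 12.7%.

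CpG content moved with the presence of a peak over the genes in the table. Promoters of genes with a peak in either list had a median ratio of 0.781, and those of genes without one 0.309. Among the 7853 protein-coding genes of the table with a ratio under 0.5, 17.1% had a peak from HEPA1-6 and 12.0% one from liver. Of the 61 genes of families 1 to 4 below that ratio, 4 (6.56%, 2.58 to 15.7%) and 5 (8.20%, 3.55 to 17.8%) held one. The liver-labelled share of families 1 to 4 could therefore not be told from that of all genes under 0.5. The HEPA1-6 share lay below it by a small margin over its interval. The sets were not matched within this range. Ratios under 0.1 were found at 22 of the 61 and 1958 of the 7853 genes, and ratios from 0.1 to 0.2 at 23 and 2038. The background was thus less CpG-poor than families 1 to 4, and shares at equal CpG content were not compared. The comparison with genes under 0.5 was added after the values were seen, and whether CpG content has a part in the low share was not tested.

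**Figure D5:**
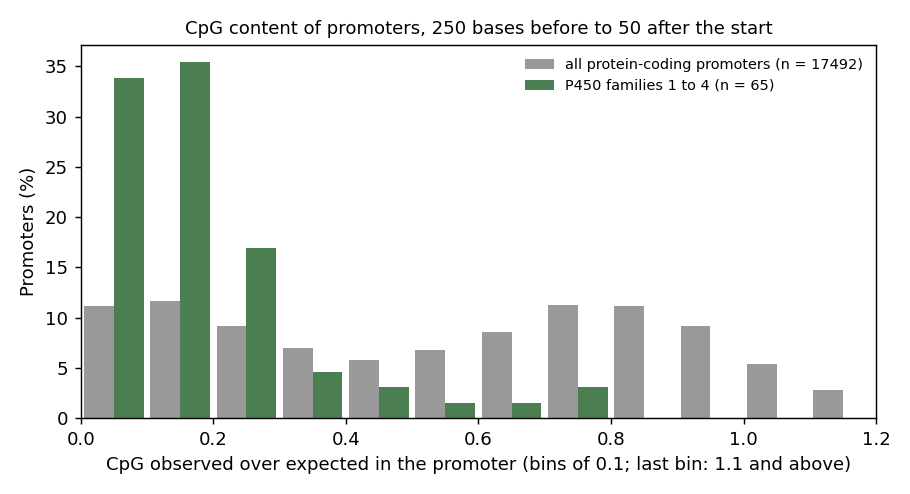
Bars give the percentage of promoters in each bin of CpG observed over expected, for the 17492 protein-coding promoters of the table and the 65 of P450 families 1 to 4. Families 1 to 4 lie mostly at the low end (median 0.137, upper quartile 0.217), whereas the promoters of the table spread over the scale (median 0.577).

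The other genes of the pathway held peaks far more often than the P450 genes. Of 12 partners (electron carriers, heme synthesis, breakdown and binding, and Cyp51), 10 held a HEPA1-6 peak (83.3%, 55.2 to 95.3%) and 7 one from the liver-labelled list (58.3%, 32.0 to 80.7%). The shares of all protein-coding genes, 42.0% and 29.7%, lay below these intervals, the second by a small margin. Cyp51 is itself a P450 gene, left out of the members by the symbol pattern. Por, the reductase that feeds the microsomal P450 enzymes, held 11 and 8 peaks, with top scores of 71 and 36. Cyb5b, a mitochondrial cytochrome b5, held 4 and 2, with top scores of 87 and 62. Cyb5r3, the reductase of cytochrome b5, held 6 in each list. Of the heme-binding membrane proteins, Pgrmc1 held 1 and 0 and Pgrmc2 2 and 1. Cyp51 held 1 in each list (scores 44 and 29), so the lanosterol demethylase differed in this from Cyp7a1 and Cyp8b1. Cyp2ab1 held none. Alas1, the first enzyme of heme synthesis, and Fdx1, the ferredoxin of the mitochondrial P450 enzymes, held none in either list.

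Of 17 regulators of P450 genes, 9 held a HEPA1-6 peak (52.9%, 31.0 to 73.8%) and 8 one from the liver-labelled list (47.1%, 26.2 to 69.0%). These intervals contain the shares of all protein-coding genes (42.0% and 29.7%), so the regulators could not be told from all genes. Hnf4a, a hepatocyte transcription factor, held 10 HEPA1-6 peaks and 5 liver-labelled peaks. Rxra, the partner of the nuclear receptors, held 4 and 5. Arnt, the partner of the aryl hydrocarbon receptor, held 5 and 2, and the sterol sensor Srebf2 held 11 and 5. Of 22 other drug-metabolising enzymes, 9 (40.9%, 23.3 to 61.3%) and 7 (31.8%, 16.4 to 52.7%) held a peak, close to the shares of all genes. Gstp1, a glutathione transferase, had top scores of 84 and 44, followed in HEPA1-6 by Aldh2 (72) and Aldh3a2 (39), aldehyde dehydrogenases, and Ephx1 (38), the microsomal epoxide hydrolase. The intervals of all 3 lists lay wholly above those of the P450 members in both sources. Median gene length was 21763 bp for the partners, 53870 bp for the regulators and 20594 bp for the other enzymes, so the regulators were also the longer genes. No test was run between these lists.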

How the data were processed

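Peak lists of 2 sources, 1 per source, were analysed. Each deposited peak carries a score from the authors, in whole numbers from 10 up and of unstated scale, which was compared only within a list. Per the peak names in the deposited lists, merged IP libraries were compared with input. The submitters' processing notes name CASAVA 1.8.2, cutadapt, Bowtie2, bedtools, SAMtools and MACS2 and the build mm10 (GRCm38), with no role, order or threshold. How a strand was given to a peak is not given in the sources used here. Single libraries, and those with RNase H1, were not analysed here.

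Peaks were laid over the RefSeq table with pandas 2.3.3 and SciPy 1.17.1 (Python 3.11.15). An overlap of at least 1 bp with a gene body and its 1 kb flanks counted, and 1 bp also made peaks shared. Gene strands and promoters came from the RefSeq promoter table, at the 5′-most start. The overlap function was tested on simulated data. Rates per Mb of a chromosome ran from its first to its last protein-coding gene. Named were all members with a peak, 12 further chosen members, and up to 5 genes with the highest-scoring peaks of each related list (others named, such as Alas1 and Fdx1, were chosen after their values were seen). Some genes that this rule names are not reported here. The members and lists were chosen with earlier results of these data known. Bile acid, hormone and vitamin D subgroups were set afterwards. Alternatives varied flank, overlap, score, list length, strand, neighbouring genes, chromosome and group limits.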

Additional observations from a re-analysis of the deposited data

How the results depend on the processing

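Across 63 alternatives for 11 results, 51 values stayed within 1.5 times the reported count or within the interval of the reported share, and 12 moved. Some of the 51 could not have moved, so their number overstates stability. For the liver-labelled list, an equal number of peaks was the whole list. Every peak at a P450 gene had a strand, so keeping stranded peaks only changed no member count. No chromosome 15 member held a liver-labelled peak. With only the higher-scoring 50% of peaks, the liver-labelled count fell to 2 members, both in families 1 to 4 (Cyp3a13 and Cyp3a44), and the HEPA1-6 count of the sterol families to 1, as it did (1) with equal numbers of peaks. A flank of 5 kb, which takes in more positions, gave 1 sterol gene in the liver-labelled list (Cyp27b1), and so did (1) adding Cyp51 and Cyp2r1. The background shares moved to 49.3% and 33.5% among genes as long as the members, to 17.1% and 12.0% among genes with CpG-poor promoters and to 33.5% and 20.8% with the higher-scoring 50% of peaks, the last 2 choices made after seeing the data. The unknown depth limits every count: a peak below the authors' threshold is not listed. No paired analysis was possible because each source had 1 merged list, so leaving out replicates was not run either.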
